A study of Mus musculus with 8 samples.

Results

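Serum response factor (SRF), its coactivators of the myocardin family and its ternary complex factors were examined as transcripts in mouse aortic smooth muscle cells given jasplakinolide. The 7 genes, chosen by name, were Srf, Myocd, Mrtfa, Mrtfb, Elk1, Elk3 and Elk4, out of 19938 genes compared on 8 Affymetrix arrays. The jasplakinolide group was 4 samples of primary cells from the aorta of C57Bl6 mice, in passage 3 to 4, that had grown in DMEM plus 10% fetal calf serum with 100 nM of the compound for 24 h. The control group was 4 samples of the same strain, passages and serum medium without it. Jasplakinolide, from marine sponges, enters cells, binds actin filaments and promotes actin polymerisation. Values are log2 expression levels after robust multi-array averaging (RMA), differences are jasplakinolide minus control on that log2 scale, and each gene is represented by its brightest probe set. Whether replicates are separate cultures or animals is not stated, so each p-value reflects sample-to-sample spread that may be technical only.

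SRF is a MADS-box transcription factor that binds CArG boxes in the promoters of contractile, cytoskeletal and immediate early genes. On its own it activates weakly, and 2 classes of partner compete for it. Myocardin and the myocardin-related factors are coactivators of muscle and cytoskeletal genes, and the related factors are held in the cytoplasm by monomeric actin bound to their RPEL motifs, so that actin polymerisation releases them to the nucleus. The ternary complex factors are ETS-domain proteins that bind DNA beside SRF and respond to phosphorylation by the Ras-ERK cascade. Arrays measure transcripts only, so the location and phosphorylation of these proteins were not measured.

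None of the 7 genes passed the test (limma with Benjamini-Hochberg adjustment over all genes, adjusted p under 0.05, as everywhere below), in a comparison where 154 genes, 0.772% of those tested, did, and none passed with the replicate number as a block, where 377 genes (1.89%) did. At an unadjusted p under 0.05 without the block there was 1 of the 7, Elk3, against 8.87% of all genes. The groups did not overlap in 1 of the 7, again Elk3, against 6.91% of all genes. The mean was above 0 for 5 members and below 0 for 2, and the median difference was 0.01, the same to 2 decimals as the median of 0.01 over all genes. Taken over the 7 genes, the 95% intervals reached no lower than -0.21 (Mrtfb) and no higher than 0.33 (Myocd), which in folds is 0.866 to 1.26. Contractile targets of SRF in the same arrays rose by up to 2.0 on the log2 scale (Kcnmb1). The number of changed genes was 43 without control 4, 52 to 78 without any other single array except control 2, and 150 without control 2, but no member passed in any of these 8 fits.

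**Figure D1:**
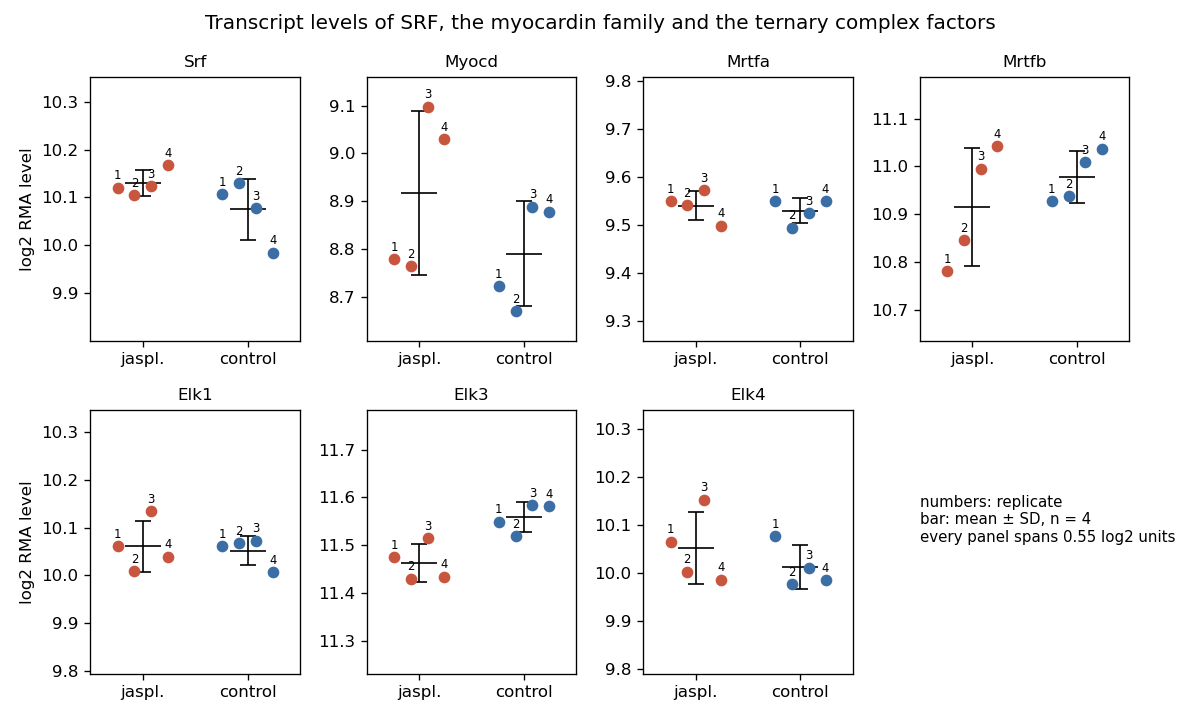
Log2 RMA level (y axis) of each of the 7 genes on the 4 jasplakinolide arrays (red, left) and the 4 control arrays (blue, right), with replicate numbers beside the points, bars at the mean ± SD, and an equal span of 0.55 log2 units in every panel. Only in Elk3 do the red and blue points not overlap, and in Myocd replicates 3 and 4 lie above replicates 1 and 2 in both groups.

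The labelled cell type was checked first against its markers. All 6 defining smooth muscle markers had higher levels on every jasplakinolide array than on any control array, against 3.62% of all genes. Of the 6, 5 rose (0.436% of all genes rose), with Smtn at 0.10 ± 0.05 (SE) not passing. All 6 are counted again among the contractile targets of SRF below. Their mean level was 11.5 to 11.6 log2 in jasplakinolide arrays and 10.9 log2 in all control arrays. Endothelial markers were also bright. Of 12 measured, 6 were in the brightest 10% of genes and the dimmest was Cldn5 at a mean of 7.76 log2, while the 95th percentile of 1027 olfactory receptor genes, a gauge of background, was 6.76 log2. The mean list level was 10.6 to 10.7 log2 in jasplakinolide arrays, against 10.8 log2 in each control array. Of the 12, 1 fell (0.336% of all genes fell), Robo4 (-0.41 ± 0.06, SE), a guidance receptor of endothelial cells, and it missed the threshold without jasplakinolide 1 or 2 or without control 3 or 4 (adjusted p 0.0580 to 0.0729). With the block, where 1.89% of all genes passed in either direction, 3 fell, Robo4 and the receptors Kdr and Tek. No marker of macrophages (10 measured) or of adventitial fibroblasts (9 measured) passed without the block, where 0.772% of all genes did. At an unadjusted p under 0.05, where 8.87% of all genes lay, there were 4 macrophage markers (3 higher, 1 lower) and 3 fibroblast markers (1 higher, 2 lower). Their largest differences were -0.24 ± 0.07 for Cd68, 0.19 ± 0.08 for Aif1, -0.54 ± 0.12 for Dcn and -0.46 ± 0.11 for Dpt (SE). With the block, read against the same 1.89%, Cd68 (limma, adjusted p = 0.0424) and Dcn (adjusted p = 0.0134) fell. In such bulk samples, fewer cells of a type and less RNA per cell cannot be told apart.

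Srf, the DNA-binding partner shared by all the others, had levels of 10.12, 10.10, 10.12 and 10.17 log2 in jasplakinolide replicates 1 to 4, against 10.11, 10.13, 10.08 and 9.98 log2 in control replicates 1 to 4. The treated arrays lay within a narrow band, control 4 was the lowest of the 8, and the groups overlapped. The mean was 10.13 ± 0.03 log2 with jasplakinolide and 10.07 ± 0.06 log2 in control (SD, n = 4 each), a difference of 0.05 ± 0.05 (SE) with a 95% interval of -0.05 to 0.16. The fold was 1.04, with an interval of 0.966 to 1.12 (limma, adjusted p = 0.860). Most of the difference came with 1 same-numbered pair: it was 0.01, -0.03 and 0.05 for numbers 1 to 3 and 0.18 for number 4.

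The Srf promoter is shown because it is itself a promoter with CArG boxes, as known from the regulation of Srf by its own product. Promoter windows from 250 bases before to 50 after a gene's start (RefSeq, GRCm38.p6) were found for 6 of the 7 genes. The CArG box was searched by exact matches to its consensus, which reads alike on both strands. Of these 6 genes only Srf held one, and its window held 2. Among 32851 windows of the same length, 1.63% held a CArG box and 6 windows held more than 1. The 4-base ETS core GGAA, searched on both strands, occurred 5 times in the Srf window, once overlapping the end of the second CArG box, but 96.0% of all windows hold that core. The Srf window, chr17:46556113-46556412 on the minus strand, has its CArG boxes in capitals, beginning 82 and 62 bases before the start:
Srf: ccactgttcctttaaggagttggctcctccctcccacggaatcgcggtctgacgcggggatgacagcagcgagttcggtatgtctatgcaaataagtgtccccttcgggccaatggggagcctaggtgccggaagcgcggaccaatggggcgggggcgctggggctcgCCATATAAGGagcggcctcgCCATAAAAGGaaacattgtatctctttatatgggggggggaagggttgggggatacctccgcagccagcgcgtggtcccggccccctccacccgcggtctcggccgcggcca
The match describes these letters and does not show binding in these cells. Srf differed by 0.05. Of 13 target genes below that held a CArG box in the same kind of window, 4 rose (Acta1, Dmd, Myl9 and Fhl1) and 9 did not pass, with differences of 0.05 to 0.33. Of all 254 tested genes with a box 8 rose, and of all genes tested 0.436% rose.

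Among the coactivators, Myocd, which encodes myocardin, the member restricted to smooth and cardiac muscle, had the largest difference of the 7 genes and the widest spread. Its levels were 8.78, 8.76, 9.10 and 9.03 log2 in jasplakinolide replicates 1 to 4, against 8.72, 8.67, 8.89 and 8.88 log2 in control replicates 1 to 4. In both groups replicates 3 and 4 were above replicates 1 and 2, and jasplakinolide 1 and 2 lay below control 3 and 4, so the groups overlapped. The mean was 8.92 ± 0.17 log2 with jasplakinolide and 8.79 ± 0.11 log2 in control (SD, n = 4 each). The difference was 0.13 ± 0.09 (SE), with a 95% interval of -0.07 to 0.33 (limma, adjusted p = 0.793), or 1.09-fold with an interval of 0.951 to 1.26. Within same-numbered pairs the treated array was higher each time, by 0.06, 0.09, 0.21 and 0.15. The labels do not say what a number marks. The difference was 0.01 with array weights and 0.05 without control 2 and jasplakinolide 4 together. It was 0.17 without jasplakinolide 1 and 0.18 without jasplakinolide 2. With the replicate block the 95% interval was 0.03 to 0.23 (limma, unadjusted p = 0.0202, adjusted p = 0.222).

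Mrtfa, a broadly expressed actin-regulated coactivator, was the steadiest of the 7 transcripts. It had 9.55, 9.54, 9.57 and 9.50 log2 in jasplakinolide replicates 1 to 4, against 9.55, 9.49, 9.52 and 9.55 log2 in control replicates 1 to 4. All 8 values lay within 0.08 log2 units of each other and neither group stood higher. The difference was 0.01 ± 0.04 (SE), with a 95% interval of -0.08 to 0.10, or 0.946 to 1.07 in folds (limma, adjusted p = 0.972). Of all genes, 11.3% had a smaller difference in either direction. Its sign turned without control 2 (-0.00075).

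Mrtfb, the second actin-regulated coactivator, was measured by 3 probe sets. The brightest had 10.78, 10.85, 11.00 and 11.04 log2 in jasplakinolide replicates 1 to 4, against 10.93, 10.94, 11.01 and 11.04 log2 in control replicates 1 to 4. Jasplakinolide 1 and 2 were the lowest of the 8 arrays, while replicates 3 and 4 of both groups lay together at the top. The mean was 10.92 ± 0.12 log2 with jasplakinolide and 10.98 ± 0.05 log2 in control (SD, n = 4 each). The difference was -0.06 ± 0.07 (SE), with a 95% interval of -0.21 to 0.09, or 0.866 to 1.06 in folds (limma, adjusted p = 0.899). It was -0.016 without jasplakinolide 1, -0.038 without jasplakinolide 2, -0.10 without jasplakinolide 4 and -0.14 with array weights (adjusted p = 0.292).

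The other probe sets of Mrtfb gave differences of the same sign and size. Probe set 10433633 had 9.83, 9.77, 9.92 and 9.87 log2 in jasplakinolide replicates 1 to 4, against 9.92, 9.91, 9.91 and 9.95 log2 in control replicates 1 to 4, a difference of -0.08 ± 0.05 (SE). Here only jasplakinolide 3 reached into the control values. Probe set 10433656 had 10.76, 10.76, 10.91 and 10.80 log2 in jasplakinolide replicates 1 to 4, against 10.71, 10.79, 11.01 and 10.94 log2 in control replicates 1 to 4, a difference of -0.06 ± 0.07 (SE). Control 1 was its lowest array. With every named probe set tested on its own (21789), neither passed (limma, adjusted p = 0.729 for 10433633 and 0.931 for 10433656), and the 3 do not measure independent samples. A single transcript form could not be singled out, because the annotation of all 3 probe sets shares a transcript. Their annotation is not the same, since another transcript is listed for the brightest probe set and 10433656 but not for 10433633.

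**Figure D2:**
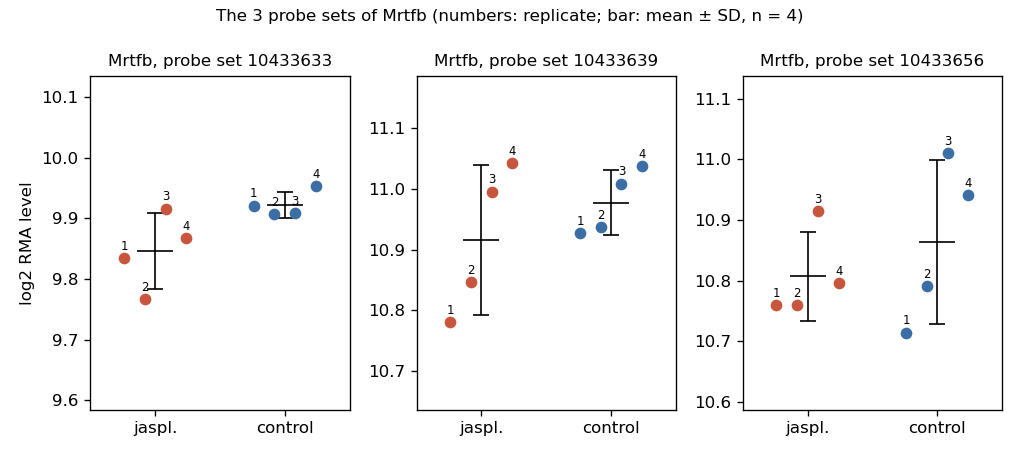
Log2 RMA level (y axis) of the 3 probe sets of Mrtfb on jasplakinolide (red, left) and control (blue, right) arrays, with replicate numbers beside the points and bars at the mean ± SD. In all 3 the jasplakinolide mean is the lower one, by 0.06 to 0.08 log2 units, and the points of the groups overlap.

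Of the ternary complex factors, Elk3, known as a repressor that Ras-ERK signalling turns into an activator, was the only member whose groups did not overlap. Its levels were 11.48, 11.43, 11.51 and 11.43 log2 in jasplakinolide replicates 1 to 4, against 11.55, 11.52, 11.58 and 11.58 log2 in control replicates 1 to 4. Every treated array was below every control array, but jasplakinolide 3 and control 2 lay next to each other. The mean was 11.46 ± 0.04 log2 with jasplakinolide and 11.56 ± 0.03 log2 in control (SD, n = 4 each), a difference of -0.10 ± 0.04 (SE). The 95% interval ran from -0.19 to -0.00033, and the unadjusted p of 0.0494 became an adjusted p of 0.559 (limma), so the transcript did not pass. Control levels were 1.07-fold those with jasplakinolide, and 74.9% of all genes had a smaller difference in either direction. Within same-numbered pairs the difference was -0.07, -0.09, -0.07 and -0.15.

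Elk3 is also expressed in endothelial cells. Of the 12 endothelial markers, of which 1 passed, 10 had a mean below 0 and 5 had groups that did not overlap, all of them lower with jasplakinolide, where 3.29% of all genes did so, and the list's median difference was -0.06. Their part in the difference of Elk3 was not tested.

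Elk1, the ternary complex factor whose phosphorylation by ERK is best known, had 10.06, 10.01, 10.13 and 10.04 log2 in jasplakinolide replicates 1 to 4, against 10.06, 10.07, 10.07 and 10.01 log2 in control replicates 1 to 4. The treated arrays held the highest value, the control arrays the lowest, and the groups were interleaved. The difference was 0.01 ± 0.04 (SE), with a 95% interval of -0.09 to 0.11, or 0.939 to 1.08 in folds (limma, adjusted p = 0.980). Its sign turned without jasplakinolide 3 (-0.015) or control 4 (-0.0059). Elk4, a ternary complex factor that activates immediate early genes, had 10.07, 10.00, 10.15 and 9.99 log2 in jasplakinolide replicates 1 to 4, against 10.08, 9.98, 10.01 and 9.99 log2 in control replicates 1 to 4. Jasplakinolide 3 was the highest of the 8 and the other 7 were mixed. The difference was 0.04 ± 0.05 (SE), with a 95% interval of -0.08 to 0.15, or 0.949 to 1.11 in folds (limma, adjusted p = 0.929), and it was 0.0055 without jasplakinolide 3.

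A p that misses the threshold does not show that a transcript was unchanged, so the size that could have been called was computed from each gene's error. At the largest unadjusted p that passed (0.000386), a difference of 0.22 would have been needed for Mrtfa, 0.23 for Elk3, 0.24 for Elk1, 0.25 for Srf and 0.27 for Elk4. For Mrtfb it was 0.35 and for Myocd 0.48, a 1.39-fold change. Every member's 95% interval ended inside its own limit, as the plot of differences shows. Interval and limit are multiples of the same standard error, so this adds little to the failure to pass. A change of the limit's size is also not sure to be called. In data simulated over all genes, 29.0% of changes of 0.25 and 75.2% of changes of 0.5 were called.

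**Figure D3:**
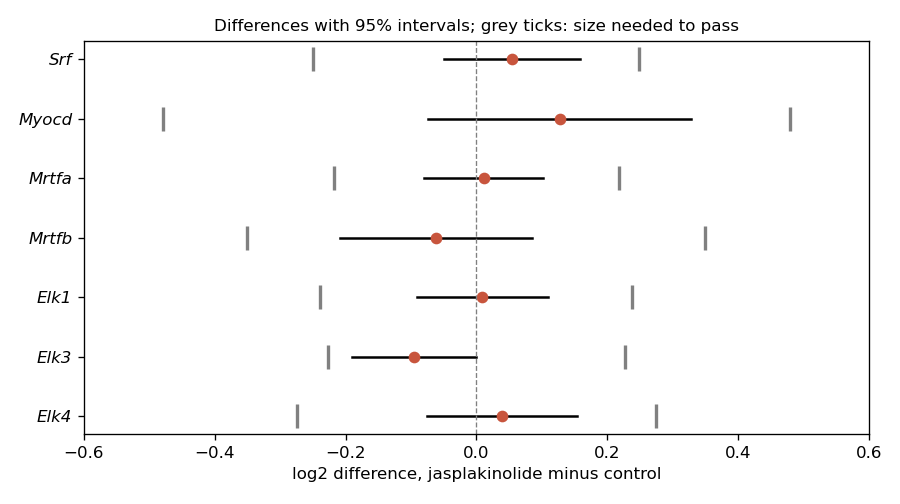
Log2 difference, jasplakinolide minus control (x axis), of the 7 genes with 95% intervals (black lines) and the size that each gene would have needed to pass the test (grey ticks). All 7 points lie between -0.10 and 0.13, and no interval reaches a grey tick.

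The genes most like each member over the 8 arrays were sought among 9719 brighter genes. Likeness was Pearson's correlation, given as a description with no test, since the 8 points share arrays and normalization and a search this wide returns high values for any gene. Myocd was most like Igfbp7 (r = 0.987), a secreted binding protein of insulin-like growth factors, Ddr2 (0.985), a collagen receptor kinase, and Tes (0.983), an adhesion protein. In all 3, replicates 3 and 4 were above 1 and 2 in both groups, and none passed the test (adjusted p 0.784 to 0.893). Elk3 was most like Tek (r = 0.992), the angiopoietin receptor of endothelial cells, Neto2 (0.983), and Kif18a (0.979), a mitotic kinesin. Tek had 9.13, 9.01, 9.32 and 9.06 log2 in jasplakinolide replicates 1 to 4, against 9.40, 9.32, 9.55 and 9.49 log2 in control replicates 1 to 4. It differed by -0.31 ± 0.08 (SE) and did not pass (adjusted p = 0.137, and 0.0354 with the replicate block). Leaving out the 2 arrays farthest from the member's median kept r at 0.955 for Igfbp7 and 0.986 for Tek. The likeness of Srf rested more on such arrays: for Ccdc12, Pgls and Slc35e4 r was 0.902 to 0.916, and 0.483 to 0.740 without them. Mrtfa was most like Ost4, Adam9 and Arf4 (r = 0.948 to 0.953), and Mrtfb most like Trim68, Tmem44 and Aplp1 (r = 0.963 to 0.977). Elk1 was most like Slc39a9, Rnf114 and Nrbp1 (r = 0.949 to 0.974), and Elk4 most like Tti2, Entpd7 and Ankrd12 (r = 0.961 to 0.977). None of these 12 genes passed (adjusted p 0.870 to 0.994).

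**Figure D4:**
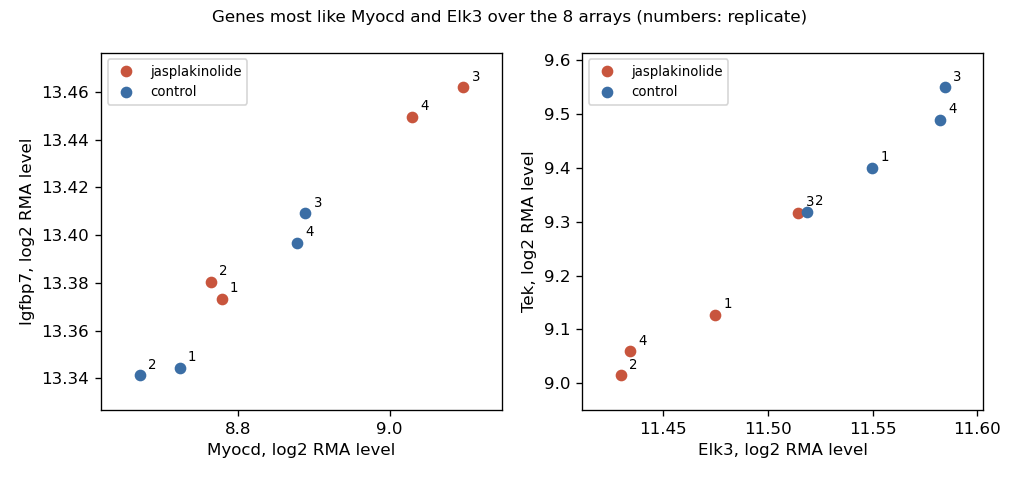
Levels of the gene most like Myocd (left, Igfbp7 on the y axis) and most like Elk3 (right, Tek on the y axis) against the member's own level (x axes), all log2 RMA, with 1 point per array and the replicate number beside it. On the left the order follows replicate number more than treatment, and on the right all 4 jasplakinolide arrays lie below the control arrays on both axes.

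Signalling genes and other partners were described next. Of 17 measured genes of the Ras-ERK cascade and its feedback none passed, with 3 at an unadjusted p under 0.05, where 8.87% of all genes lay, and a median of 0.05. Spry4 differed by 0.22 ± 0.09 and Dusp5 by 0.18 ± 0.08 (SE), both known as feedback inhibitors of the cascade. Of 20 measured other partners of SRF none passed, with 4 at an unadjusted p under 0.05, read against the same 8.87%, and a median of 0.03. Csrp1, a LIM protein that bridges SRF and GATA factors, differed by 0.22 ± 0.04 (limma, adjusted p = 0.0591) and was called higher under 7 of the alternatives. Fhl2, a LIM protein that binds SRF, differed by 0.20 ± 0.05. Both genes are also counted among the targets below.

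The targets of SRF come after its regulators. Of 19 contractile targets 11 rose, none fell and 8 did not pass, where 0.436% of all genes rose, and the median difference was 0.55. The count was 7 without jasplakinolide 3 or control 4 and 9 or 10 without any other array. Kcnmb1, a subunit of the calcium-activated potassium channel, had 10.06, 9.98, 10.50 and 10.53 log2 in jasplakinolide replicates 1 to 4, against 8.31, 8.28, 8.39 and 8.10 log2 in control replicates 1 to 4. The lowest treated array was far above the highest control array. Treated replicates 3 and 4 were above 1 and 2, as in Myocd, but control 4 was the lowest control array, unlike in Myocd. Cnn1 (calponin) had 12.35, 12.35, 12.56 and 12.66 log2 in jasplakinolide replicates 1 to 4, against 11.10, 11.17, 11.18 and 11.10 log2 in control replicates 1 to 4. Its treated replicates had the same split, which its control replicates did not show. Dmd (dystrophin) rose by 1.15 ± 0.11, Myh11 (smooth muscle myosin) by 0.81 ± 0.08 and Tagln (transgelin) by 0.55 ± 0.04 (SE). Acta2, smooth muscle alpha-actin, rose by 0.25 ± 0.04 (adjusted p = 0.0337) but lost its call without any 1 of the 8 arrays (adjusted p 0.0593 to 0.128).

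Of 27 cytoskeletal and adhesion targets of SRF with the myocardin-related factors 5 rose, none fell and 22 did not pass. Of all genes 0.436% rose, and the list's median difference was 0.17. With the replicate block, where 1.89% of all genes passed, 6 rose and 1 fell. The latter was Tuft1 (-0.38 ± 0.08, SE), which was chosen after its values were seen (limma, adjusted p = 0.0646, and 0.0451 with the block). The count was 3 without control 3, control 4 or any single jasplakinolide array, 4 without control 1 and 5 without control 2. In 22 of the 27 genes every treated array was above every control array, against 3.62% of all genes. Acta1 (skeletal alpha-actin) rose by 1.26 ± 0.13, Myl9 (a regulatory light chain of myosin) by 0.86 ± 0.06 and Tpm2 (beta-tropomyosin) by 0.76 ± 0.09 (SE), and each passed whichever array was left out. Of 16 striated muscle targets 3 rose, read against the same 0.436%, and the list's median was 0.11. The 3 were Nppb (B-type natriuretic peptide, 1.45 ± 0.14, SE), Popdc2 (a Popeye-domain protein, 1.33 ± 0.10) and Acta1, which is in both lists. The mean control level of Popdc2, 6.68 log2, lay below the background gauge of 6.76 log2, so the size of its rise is uncertain. Of 21 immediate early targets linked to the ternary complex factors none passed, where 0.772% of all genes did. At an unadjusted p under 0.05 there were 3, against 8.87% of all genes. In none did the groups separate, against 6.91% of all genes. The median of these targets was 0.03, with Egr1 at 0.35 ± 0.12 and Nr4a2 at -0.23 ± 0.13 (SE). With array weights, which called more genes in all than the main fit, 1 of them, Egr1, passed (0.47, limma, adjusted p = 0.0423).

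**Figure D5:**
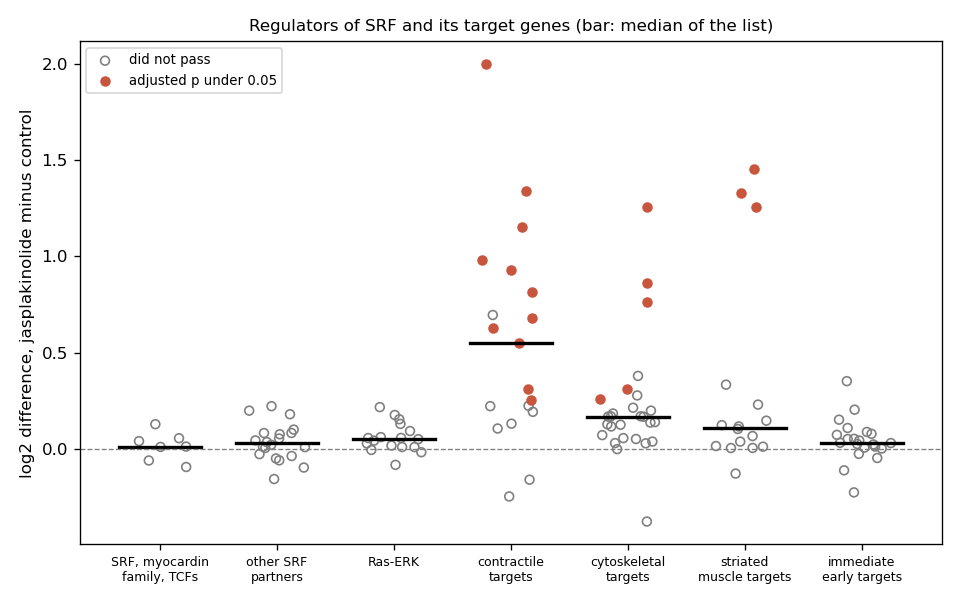
Log2 difference, jasplakinolide minus control (y axis), of each measured gene in 7 lists (x axis), with filled points for genes past the test, open points for the others and a bar at the list's median. The 3 lists on the left hold no filled point. Filled points reach 2.0 among contractile targets and are missing from the immediate early targets at the right. The lists overlap: Csrp1 and Fhl2 are among partners and targets, and Acta1, Ankrd1 and Fhl1 are shared by target lists.

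Promoter windows were matched for 22 of the 27 cytoskeletal targets, and 7 of these genes (31.8%) held a CArG box, against 254 of 15614 tested genes with a window (1.63%). Among contractile targets it was 2 of 16 (12.5%), among striated muscle targets 4 of 16 (25.0%) and among immediate early targets 2 of 17 (11.8%). CArG boxes farther from the start lie outside these windows, and several of these genes entered the lists because SRF is known to bind them. Only exact matches were counted, so boxes that depart from the consensus were missed. The Acta2 window, for example, held no exact match but holds ccctatatgg, which departs at a single base. Of the genes that rose, 8 of 67 with a window (11.9%) held one, and of those that fell 0 of 54. A gene was counted where any of its windows held a box. Dmd has another window (chrX:85048045-85048344, plus strand) without one, and which start its probe set reads was not examined. The windows of the 3 target genes that were named above, rose and held a box are shown for comparison with that of Srf, with the CArG box in capitals, beginning 98 bases before the start in Dmd (chrX:82948620-82948919, plus strand), 73 in Acta1 (chr8:123894726-123895025, minus strand) and 161 in Myl9 (chr2:156775214-156775513, plus strand), all from RefSeq (GRCm38.p6):
Dmd: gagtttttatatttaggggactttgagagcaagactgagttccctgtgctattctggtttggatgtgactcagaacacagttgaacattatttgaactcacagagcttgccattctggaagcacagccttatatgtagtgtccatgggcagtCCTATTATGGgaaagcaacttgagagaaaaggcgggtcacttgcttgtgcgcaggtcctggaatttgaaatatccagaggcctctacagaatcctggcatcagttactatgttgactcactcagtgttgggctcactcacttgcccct
Acta1: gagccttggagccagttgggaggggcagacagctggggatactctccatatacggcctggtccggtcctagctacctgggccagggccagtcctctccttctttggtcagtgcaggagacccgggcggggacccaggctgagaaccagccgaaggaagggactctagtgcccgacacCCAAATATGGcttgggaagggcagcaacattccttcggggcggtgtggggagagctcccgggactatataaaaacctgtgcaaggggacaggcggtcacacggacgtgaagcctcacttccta
Myl9: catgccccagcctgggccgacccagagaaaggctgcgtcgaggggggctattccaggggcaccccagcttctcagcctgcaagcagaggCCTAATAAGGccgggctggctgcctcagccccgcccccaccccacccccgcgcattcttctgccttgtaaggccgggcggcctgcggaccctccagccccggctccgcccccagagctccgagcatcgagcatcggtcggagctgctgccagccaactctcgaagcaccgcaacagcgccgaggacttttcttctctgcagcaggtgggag
The box in Acta1 lies at a distance from the start like those in Srf, between its 2 boxes. Acta1 rose 2.39-fold (interval 1.96 to 2.93), against a 1.04-fold difference of Srf, and the difference between the 2 genes was not tested.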

How the data were processed

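RNA of 8 samples was hybridised to 1 array each. The submitters' processing notes name RMA and Affymetrix Expression Console, without versions, as what the authors used to make the deposited log2 levels, which cover 35556 probe sets; no genome build is stated. The levels range from 2.29 to 14.2 with array medians of 7.30 to 7.39. Detection calls were not used, and the number of arrays limits the precision.

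Probe sets with 1 symbol in the platform annotation (21789) were kept, 21698 of their gene identifiers matched the RefSeq gene table with 0 symbols changed, and the probe set with the highest mean over the 8 arrays stood for a gene, which left 19938 genes. Mrtfb had 3 probe sets and the other 6 members 1 each. The test was that of limma 3.58.1 under R 4.3.3 (lmFit, eBayes, two-sided, no block, Benjamini-Hochberg over all genes), with 6 residual and 3.43 prior degrees of freedom, and the fit was tested on simulated data. Errors are limma's standard errors for differences and SDs for means. Figures used matplotlib 3.10.9. The members and the gene lists were chosen with earlier results of these data known, so the lists are not independent evidence. Named are all members, up to 3 genes a list that passed with the largest differences (2 where none passed), Acta2, Tagln, Cnn1 and Myh11, and the 3 genes most like each member among the brighter 50% of genes. Listed genes without a value are not analysed here, and 1 further gene list is not reported here.

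Same-numbered arrays of the groups deviated from their group means together (r across genes 0.24 to 0.56 in 4 of 4 pairs). Among differently numbered arrays, r was highest for jasplakinolide 4 with control 2 (0.52), above the 0.24 of jasplakinolide 2 with control 2. The numbers were taken, from the data and not the labels, to pair the samples, but the data do not settle that pairing. The replicate block was an alternative, as were filters to brighter genes, other normalizations, an intensity trend with robust prior, array weights, other handling of probe sets, a stricter adjusted p (0.01) and omission of each array. Omitting control 2 and jasplakinolide 4 together was chosen after seeing the data.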

Additional observations from a re-analysis of the deposited data

Results flagged for a closer look

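In 60 groups of 4 arrays (30 named genes in both groups), 1 had an array far from the other 3, by the gap to its neighbour as a share of the range, where chance gives about 1 in 20. It was not among the 7 SRF regulators. Lmod1, an actin nucleator of smooth muscle, had 8.15 log2 in control 4 and 8.23 to 8.24 log2 in the other control arrays (a share of 0.986).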

How the results depend on the processing

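None of the 7 SRF regulators passed under any of 20 alternatives, and the lowest adjusted p of any was 0.191 (Elk3, array weights). Srf, Myocd, Mrtfb, Elk3 and Elk4 kept their sign in all 20, while Mrtfa turned without control 2 (-0.00075) and Elk1 without jasplakinolide 3 (-0.015) or control 4 (-0.0059). Several alternatives leave the difference itself as it was, so no sign could turn there. These include the replicate block, the filters to brighter genes, the robust trend and the stricter adjusted p. The stricter cut also could not pass a gene that had failed the main test. With 1 array left out Srf ranged from 0.024 to 0.073, Myocd from 0.067 to 0.18, Mrtfb from -0.10 to -0.016, Elk3 from -0.11 to -0.084, Elk4 from 0.0055 to 0.061, Mrtfa from -0.00075 to 0.025 and Elk1 from -0.015 to 0.026. With the replicate block, Myocd differed by 0.13 with a 95% interval of 0.03 to 0.23 (limma, adjusted p = 0.222), and 377 genes changed in all. The count of changed genes was 296 among the brighter 50% of genes, 276 after another quantile normalization (131 higher, 145 lower, against 87 and 67), 299 after cyclic loess (137 and 162), 358 with the robust intensity trend, 457 with array weights, 45 at adjusted p under 0.01 and 43 to 150 with 1 array left out.

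Of contractile targets 7 passed at adjusted p under 0.01 and 7 to 10 with 1 array left out. Of cytoskeletal targets 8 passed among the brighter 75% of genes, 12 among the brighter 50%, 17 with the robust trend, 10 with array weights, 3 at adjusted p under 0.01, 3 without control 2 and jasplakinolide 4 together and 3 to 5 with 1 array left out. Of other SRF partners 1 passed among the brighter 75%, after median centring or after another quantile normalization, 2 after cyclic loess or with the trend, and 3 among the brighter 50% or with array weights. Of immediate early targets 1 passed with array weights. The cause of these shifts was not tested, other than that filters test fewer genes and the left-out fits have fewer arrays. Below the 95th percentile of olfactory receptor genes (6.76 log2) lay 0 of the 7 SRF regulators, 1 of 20 other partners, 2 of 16 striated muscle targets, 1 of 10 macrophage markers (Aif1) and 3 of 9 fibroblast markers, whose levels cannot be told from that background.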

Other observations

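Outside the lists, 4 further genes that rose held a CArG box in their promoter window. They were chosen after their values were seen: Ppbp (a platelet chemokine, 0.93 ± 0.09, SE), Cbr2 (a carbonyl reductase, 0.85 ± 0.13), 1700009N14Rik (0.48 ± 0.09) and Rasa4 (a Ras GTPase-activating protein, 0.37 ± 0.07). Besides Srf, the only listed gene with 2 CArG boxes in 1 window was Dusp5, a phosphatase of ERK, which differed by 0.18 ± 0.08 (SE) and did not pass (limma, adjusted p = 0.533).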
